A study of Sorghum bicolor with 63 samples.

Results

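Primary roots of sorghum seedlings that had been returned to nitrate for the longest recovery sampled (48 h NR) were compared with primary roots at the end of nitrate deprivation (24 h ND). The members are the 3 libraries labelled 48 h nitrogen recovery and the 3 labelled 24 h nitrogen deprivation in the primary root table, 6 of the 63 libraries of the series, and no measured value was used to choose them. Every plant was Sorghum bicolor of the inbred reference genotype BTx623, grown in hydroponics under controlled light, and treated as a seedling of 21 days. Plants were moved from complete solution to one without nitrate salts, and nitrate was put back after 24 h. Leaf, lateral root and primary root were sampled before withdrawal (0 h NN), after 0.5, 3 and 24 h of deprivation (ND), 0.5 h after the return of nitrate (24.5 h NR) and at 48 h NR, with 3 libraries in each group. A 7th group of each tissue is labelled as the nitrogen recovery control at 48 h (NRC), and no source used here says how those plants were treated. The methods place the last sampling 24 h after nitrate returned and the protocol in the labels places it 48 h after, so both readings put 48 h NR and 24 h ND at the same time of day. Each library is a pool of plants, so p-values measure the spread between pools. Unless stated otherwise, that spread was estimated within all 7 groups of a tissue, or within the 14 groups of a pair of tissues. In bulk tissue, fewer cells of a type and less RNA per cell cannot be told apart.

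Roots take up nitrate through transporters of low affinity (the NPF or NRT1 family) and of high affinity (the NRT2 family, which needs the small partner protein NAR2), and ammonium through AMT proteins. Nitrate is reduced to nitrite by nitrate reductase (NR) and to ammonium by nitrite reductase (NIR) with electrons that in roots come from the pentose phosphate pathway through ferredoxin, and ammonium enters amino acids through glutamine synthetase (GS) and glutamate synthase (GOGAT). In plants studied so far the high-affinity system is raised when nitrogen runs short and lowered when supply is ample, NLP proteins act as nitrate-responsive transcription factors (TFs), and NIGT1 repressors are switched on by nitrate.

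In the 6 libraries 20899 to 21543 genes reached 1 TPM (the TPM unit is a share of all transcripts in a library scaled for gene length). The mean correlation of each library with the others of its group, on log2(TPM + 1), was 0.971 to 0.977 at 24 h ND and 0.970 to 0.980 at 48 h NR. Replicate 2 of 48 h NR stood slightly apart, with r = 0.976 to its nearest partner and 0.975 to a lateral root library of the same time and number. Its NAR2.1 level, 48.4 TPM, lay between those of its partners, and whether this gene tells both root tissues apart was not tested. For 295 of 295 genes in the study's table of clustered root genes, the 48 h level matched another mean. In that mean the lateral root library took the place of replicate 2. The labelled columns matched for 19. Whether these columns were exchanged is not known, and they were used as labelled. The 14 leaf markers (light-harvesting, photosystem and C4 genes) summed to 140.3 to 297 TPM at 24 h ND and to 207 to 545 TPM at 48 h NR, against 22689 to 62852 TPM in leaf libraries, with replicate 2 the highest of both groups. All 14 had positive log2 fold changes with a median of 0.83, and 0 of 14 passed the test. Without replicate 2 of 48 h NR their median was 0.16. The part of this difference in other results was not tested. In the 24.5 h NR group, whose values are given beside some genes, replicate 3 had 30736 genes at 1 TPM or more, leaf markers summing to 3790 TPM and a mean r of 0.918 with its group, and replicate 1 was nearest to a lateral root library (r = 0.975). Without that group in the fit there were 1184 DEGs in place of the 1097 given next. Of the 3 clock genes described in the sources (GI, TOC1 and FKF1) 0 passed the test.

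Of 23186 genes tested, 1097 were DEGs (4.73%), that is, genes that passed 0.05 after Benjamini-Hochberg adjustment and changed by more than 1 on the log2 scale. Of these, 455 were higher at 48 h NR (1.96%) and 642 were lower (2.77%). Deprived and recovered pools were fully separated in 1087 of the 1097 DEGs, and in 7510 of all genes tested (32.4%). Among higher genes the median log2 fold change was 1.47, 97 changed by more than 2 and 12 by more than 3. Lower genes had a median size of 1.33, with 83 over 2 and 26 over 3, so the most extreme changes were falls. The median over all genes tested was 0.06. The higher DEGs together held 1.51 to 2.13% of all TPM at 24 h ND and 4.66 to 6.16% at 48 h NR, and the lower DEGs held 4.77 to 5.86% and then 1.89 to 2.20%. Leaving out replicate 2 of 48 h NR left 750 DEGs, 723 of them among the 1097, with 269 higher and 481 lower, and leaving out replicate 3 of 24 h ND left 293 higher, so the number of higher genes rests on single libraries more than the number of lower genes.

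**Figure D1:**
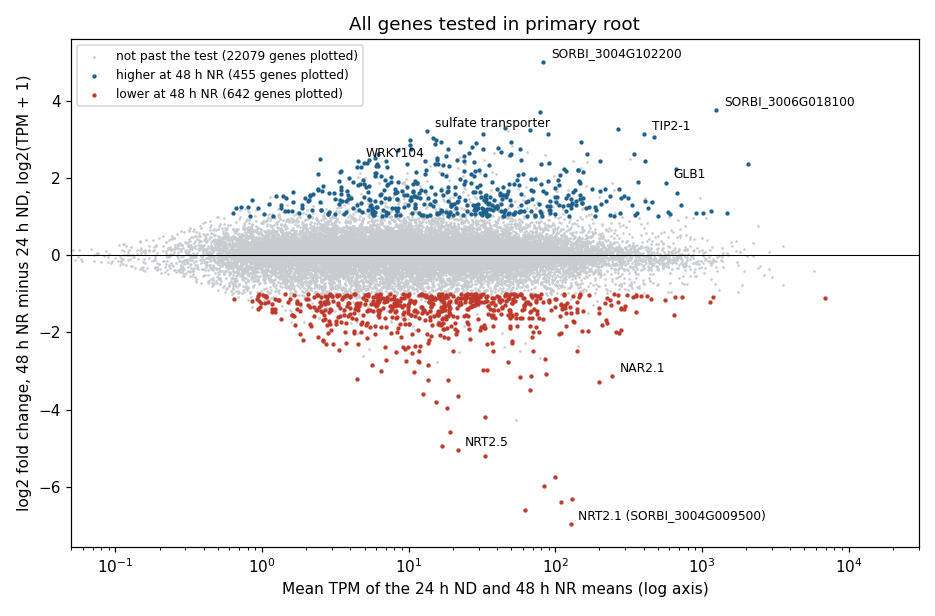
The plot of all genes tested shows the log2 fold change on log2(TPM + 1), 48 h NR minus 24 h ND (vertical axis), against the mean TPM of both groups (horizontal log axis), with 1 point per gene. The 455 higher genes are blue, the 642 lower genes red, and the transporters NRT2.1 and NRT2.5 stand among the lowest points while the highest point is at 5.00.

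The nitrogen transporters fell or did not pass the test. Of 15 measured transporters in the study's nitrogen network, 5 fell and 0 rose (33.3% called, against 4.73% of all genes), with a median log2 fold change of -0.48. The 5 that fell were both NRT2.1 genes, NRT2.5, NAR2.1 and AMT1.3, and all 5 stayed called without replicate 2 of 48 h NR.

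NRT2.1 (SORBI_3004G009500), a high-affinity nitrate transporter, was at 276, 229 and 255 TPM at 24 h ND and at 1.16, 0.974 and 0.975 TPM at 48 h NR. Every deprived pool was above 200 TPM and every recovered pool was close to 1, a mean of 253 ± 23.6 (SD, n = 3) against 1.04 ± 0.110. The log2 fold change was -6.96 ± 0.32 (SE; adjusted p = 8.0e-10).

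The neighbouring NRT2.1 (SORBI_3004G009400) was at 152, 101 and 119.5 TPM and then at 0.271, 0.334 and 0.200 TPM, a log2 fold change of -6.61 ± 0.28 (adjusted p = 4.4e-10). Its recovered pools were all under 1 TPM, where the pseudocount of 1 makes a log2 fold change smaller than the ratio of the means, which was 464. How reads shared by these gene copies were assigned is not given in the sources used here.

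NRT2.5, the member of the family that in Arabidopsis serves roots and leaves long starved of nitrogen, was at 65.6, 36.8 and 26.1 TPM at 24 h ND. At 48 h NR it was at 0.325, 0.170 and 0.204 TPM, which gives a log2 fold change of -5.05 ± 0.24 (adjusted p = 8.1e-10). The deprived pools differed by more than 2-fold among themselves and none came near the recovered pools.

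NAR2.1, the partner protein of NRT2 transporters, was at 554, 345 and 418 TPM at 24 h ND and at 44.7, 48.4 and 51.4 TPM at 48 h NR. It fell by 3.14 ± 0.18 on the log2 scale (adjusted p = 7.5e-09) and, unlike the NRT2 genes, stayed well expressed in the recovered roots.

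AMT1.3, an ammonium transporter, was at 117, 78.6 and 139.6 TPM and then at 39.1, 34.7 and 37.9 TPM (log2 fold change -1.52 ± 0.31, adjusted p = 0.0047). Its groups did not overlap. The other ammonium transporters did not pass the test: AMT1.1a had a log2 fold change of -0.64 ± 0.34 (adjusted p = 0.25) with overlapping groups, AMT2.3 of -0.46 ± 0.25 (0.25) and AMT2.4 of -0.48 ± 0.16 (0.060).

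Among the low-affinity nitrate transporters, NPF2.3 went from 438, 388 and 467 TPM to 244, 223 and 247 TPM. Its groups did not overlap and its adjusted p was 0.0019, but its log2 fold change of -0.85 ± 0.15 did not reach the fold threshold. NRT1.1, the dual-affinity transporter and nitrate sensor of Arabidopsis, was at 152 ± 9.03 TPM and then at 151 ± 19.2 TPM, a log2 fold change of -0.01 ± 0.22 (adjusted p = 0.98). NRT1.3, NPF3.6, NPF4.7 and NPF4.9 had log2 fold changes between 0.11 and 0.43 and did not pass the test.

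**Figure D2:**
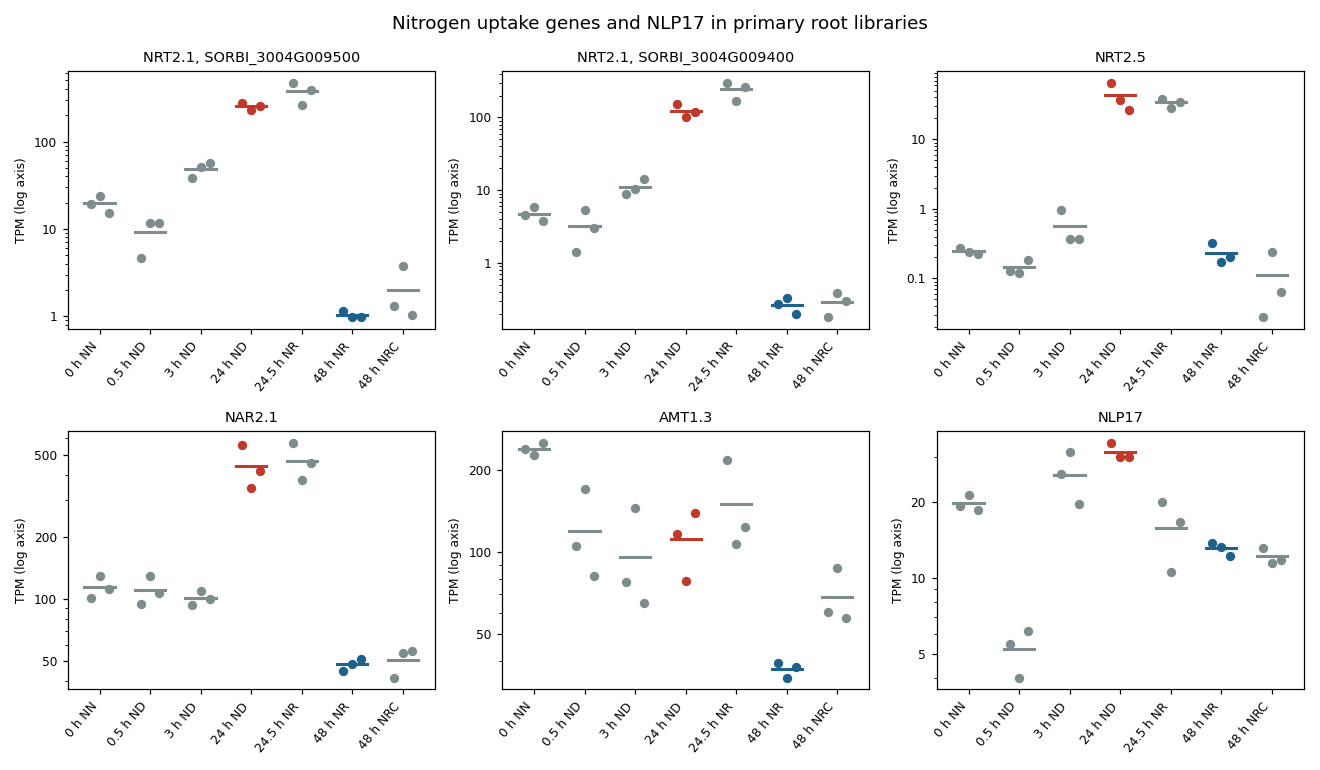
The plot of uptake genes shows TPM on log axes in each primary root library (points) of the 7 groups, with a line at each group mean, for both NRT2.1 genes, NRT2.5, NAR2.1, AMT1.3 and the TF NLP17. The 24 h ND libraries are red and the 48 h NR libraries blue: the blue points lie below the red points in every panel, near 1 TPM or under it for NRT2.1 and NRT2.5.

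The uptake genes can be followed through the other groups, which share libraries with the comparison above. From 0 h NN to 24 h ND, SORBI_3004G009500 changed by 3.65, SORBI_3004G009400 by 4.44, NRT2.5 by 5.04 and NAR2.1 by 1.92 on the log2 scale, and all 4 were among the 4.50% of genes called there. At 24.5 h NR, 0.5 h after nitrate returned, none of them was called against 24 h ND (3.80% of all genes were), and SORBI_3004G009500 was at 473, 259 and 390.4 TPM. At 48 h NR the levels were below those before withdrawal for SORBI_3004G009500 (log2 fold change -3.31 ± 0.32 against 0 h NN, adjusted p = 1.9e-05), SORBI_3004G009400 (-2.17 ± 0.28, 3.2e-04) and NAR2.1 (-1.22 ± 0.18, 6.4e-04). NRT2.5 was at 0.245 ± 0.0226 TPM at 0 h NN and at 0.233 ± 0.0814 TPM at 48 h NR. AMT1.3 differed from the NRT2 genes in its course, since it was highest at 0 h NN (240.1 ± 12.6 TPM) and was already lower at 24 h ND (log2 fold change -1.14 ± 0.31, adjusted p = 0.028).

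Of the 14 genes listed for nitrate assimilation 12 were tested, of which 1 rose and 1 fell (16.7%, against 4.73% of all genes, with a median log2 fold change of 0.15). NR2, a nitrate reductase, was at 304, 265 and 283 TPM at 24 h ND and at 141, 84.5 and 109.8 TPM at 48 h NR. The log2 fold change was -1.36 ± 0.35 (adjusted p = 0.017), with no overlap between groups. This call was lost without replicate 2 of 48 h NR (adjusted p = 0.090) and without replicate 1 or 3 of 24 h ND (0.066 and 0.055). NR1 was at 103 ± 22.0 and 105 ± 13.4 TPM (log2 fold change 0.03 ± 0.18) and NIR1 at 328 ± 26.1 and 398 ± 52.4 TPM (0.27 ± 0.17), and neither passed the test.

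Of genes that supply reducing power, RFNR and G6PD1 were higher in recovered roots. RFNR, the root ferredoxin-NADP reductase, went from 236, 221 and 225 TPM to 554, 403 and 461 TPM, a log2 fold change of 1.04 ± 0.19 (adjusted p = 0.0020). It lies just above the fold threshold and its size was 0.92 without replicate 1 of 48 h NR. G6PD1, glucose-6-phosphate dehydrogenase of the pentose phosphate pathway, went from 72.1, 80.2 and 76.1 TPM to 225, 182 and 199 TPM, a log2 fold change of 1.39 ± 0.20 (adjusted p = 3.8e-04). G6PD1 was the 1 called gene of 5 listed for carbon metabolism, whose median of 0.90 was that of PPDK2, which had 57.2, 89.0 and 40.0 TPM and then 89.6, 184 and 81.9 TPM (adjusted p = 0.54). PGM of that list went from 37.7, 39.8 and 44.1 TPM to 39.0, 22.3 and 29.0 TPM (log2 fold change -0.45 ± 0.21, adjusted p = 0.18), and PEPC6 (0.05) and LHCB5 (1.06 ± 1.00) did not pass either. UPM2, uroporphyrinogen methyltransferase, which makes the siroheme of nitrite reductase, was at 74.8 ± 3.50 and 89.4 ± 14.6 TPM (log2 fold change 0.24 ± 0.23).

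At 24.5 h NR, NIR1 reached 1318 ± 291 TPM, RFNR 1034 ± 258 TPM, UPM2 388 ± 129 TPM and G6PD1 408 ± 136 TPM, and all 4 were called against 24 h ND, with log2 fold changes of 1.99, 2.15, 2.30 and 2.35. At 48 h NR only RFNR and G6PD1 of these 4 were called against the same deprived libraries, and the difference between 24.5 h NR and 48 h NR was not tested.

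Of the genes that fix ammonium, GS1-3 went from 1604, 1460.5 and 1572 TPM to 938, 795 and 1016 TPM. Its groups did not overlap, its adjusted p was 0.0017, and its log2 fold change of -0.76 ± 0.14 did not reach the fold threshold. GS1-1 was at 202 ± 34.0 and 195 ± 47.6 TPM, and both groups were below the 792 ± 47.4 TPM of 0 h NN (log2 fold change of 48 h NR against 0 h NN -2.04 ± 0.31, adjusted p = 8.3e-04). The glutamate synthases GOGAT1, GOGAT4 and the 3 genes named GOGAT2 had log2 fold changes between 0.08 and 0.36 and did not pass the test.

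Among 7 tested genes of amino acid metabolism, 2 rose and 1 fell (42.9%, against 4.73% of all genes, median 0.16). GDH1, a glutamate dehydrogenase, which can release ammonium from glutamate, was at 53.8, 63.5 and 62.0 TPM and then at 189, 119 and 147 TPM (log2 fold change 1.31 ± 0.17, adjusted p = 1.8e-04). GDH2 went from 23.1, 26.2 and 16.3 TPM to 62.2, 106 and 77.8 TPM (1.85 ± 0.44, adjusted p = 0.013). The GDH2 call was lost without replicate 2 of 48 h NR (adjusted p = 0.068) or replicate 3 of 24 h ND (0.063).

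The aminotransferase AspAT (SORBI_3006G243200), which links aspartate and glutamate, moved the other way, from 71.8, 80.4 and 75.0 TPM to 24.4, 25.1 and 25.3 TPM (log2 fold change -1.56 ± 0.21, adjusted p = 1.8e-04). Another aspartate aminotransferase, described as mitochondrial (SORBI_3004G104700), rose from 40.2, 41.1 and 45.4 TPM to 102, 96.4 and 87.2 TPM (1.15 ± 0.14, adjusted p = 8.5e-05). Neither pair of groups overlapped. ASN1 and ASN3, the asparagine synthetases named in the network, had log2 fold changes of -0.10 ± 0.10 and 0.16 ± 0.22. AlaAT1, an alanine aminotransferase, had one of 0.62 ± 0.24 (adjusted p = 0.099). Outside the network, the gene described as DIN6 (SORBI_3005G003200) passed as higher. Its means were 3.12 and 10.7 TPM with overlapping groups (log2 fold change 1.94), and this call was lost in 8 of 17 other settings.

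GLB1, which the study lists under stress response, was at 295, 280.1 and 142 TPM at 24 h ND and at 744, 1347 and 586 TPM at 48 h NR (log2 fold change 1.88 ± 0.34, adjusted p = 0.0020). It was 1 of 4 tested genes of that list to pass. None passed of the 3 listed for ethylene biosynthesis, the 4 for auxin signalling, the 1 for cytokinin synthesis, the 5 linked to nitrogen and the 2 each for other enzymes and ubiquitination, whose medians lay between -0.26 and 0.23.

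**Figure D3:**
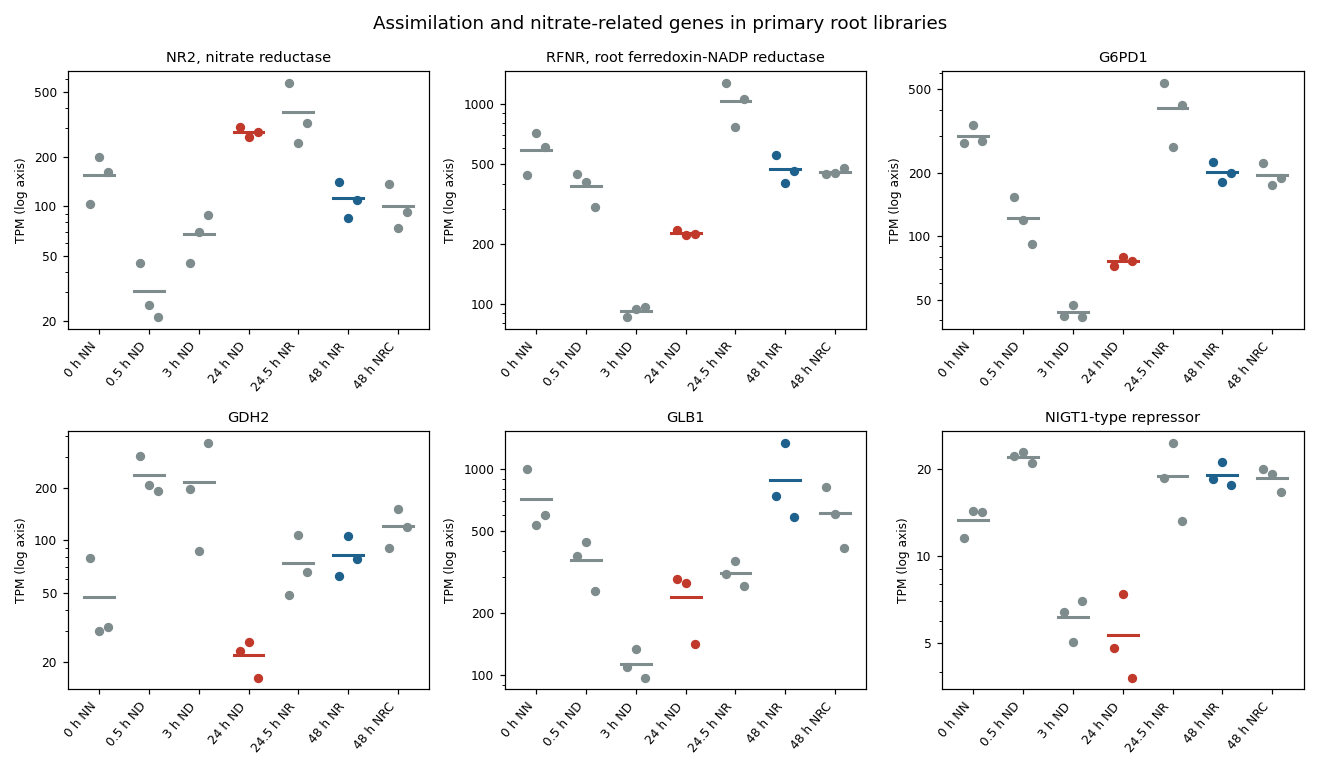
The plot of assimilation genes shows TPM on log axes in each primary root library (points) with a line at each group mean, for NR2, RFNR, G6PD1, GDH2, GLB1 and the NIGT1-type repressor. Blue 48 h NR points lie below the red 24 h ND points for NR2 and above them for the other 5 genes, and NR2, RFNR and G6PD1 are highest at 24.5 h NR.

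Of 240 TFs of the study's network that were tested, 8 rose and 10 fell, 7.50% against 4.73% of all genes, with a median log2 fold change of 0.01. Without replicate 2 of 48 h NR the counts were 5 and 9. The MYB family had 4 falls and 0 rises among 26 tested members (median -0.40), the NAC family 2 falls and 1 rise among 28, and the WRKY family 0 falls and 2 rises among 14. The EREB family had 1 call among 37 members, the bZIP family 1 among 28, and 0 passed among 9 auxin-response (ARF and IAA) and 5 heat-stress (HSF) TFs.

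NLP17, an NLP-type TF, was at 34.2, 30.1 and 30.1 TPM at 24 h ND and at 13.8, 13.2 and 12.2 TPM at 48 h NR, a log2 fold change of -1.21 ± 0.19 (adjusted p = 7.2e-04). The other NLPs did not pass, with NLP6 at 0.23 ± 0.11 and NLP7 at -0.17 ± 0.15. HSF20 had a log2 fold change of -0.54 ± 0.38 (adjusted p = 0.41) and Orphan207 of 0.33 ± 0.19 (0.28).

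A gene outside the network that is described as a nitrate-inducible, autorepressed TF of the NIGT1 type (SORBI_3008G036900) changed in the opposite direction to NLP17. Its levels were 4.81, 7.42 and 3.81 TPM and then 18.5, 21.1 and 17.6 TPM (log2 fold change 1.70 ± 0.20, adjusted p = 7.1e-05). It was already at 18.8 ± 5.69 TPM at 24.5 h NR.

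Among TFs that rose, WRKY104 (SORBI_3002G202800) went from 0.385, 1.27 and 0.466 TPM to 5.75, 11.8 and 7.46 TPM (log2 fold change 2.44 ± 0.35, adjusted p = 3.2e-04). Its neighbour SORBI_3002G202700, described as a WRKY TF and not in the network, went from 6.71, 7.16 and 8.70 TPM to 49.5, 64.9 and 56.2 TPM (2.76 ± 0.32, adjusted p = 5.9e-05). WRKY15 rose from 60.1, 61.4 and 70.3 TPM to 207, 218 and 199 TPM (1.69 ± 0.15, adjusted p = 2.0e-06). bHLH20 and NAC126 rose by 1.68 ± 0.26 and 1.30 ± 0.27 on the log2 scale. LBD17, COL5, GLK9 and Orphan11 passed with log2 fold changes of 1.00 to 1.07, just over the fold threshold, and each of these calls was lost in 4 or 5 of 17 other settings.

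Among TFs that fell, NAC86 went from 21.2, 16.7 and 19.1 TPM to 3.16, 2.24 and 3.47 TPM (log2 fold change -2.34 ± 0.27, adjusted p = 4.9e-05). bZIP24 was at 8.28, 9.41 and 6.61 TPM and then at 1.34, 1.20 and 1.33 TPM (-1.98 ± 0.39, adjusted p = 0.0037). MYB124, MYB64, MYB19 and MYB8 had log2 fold changes of -1.64, -1.53, -1.22 and -1.20, and the zinc finger TF C3H9 of -1.55. NAC22 and EREB102 passed at -1.21 and -1.08, from means of 1.93 and 459 TPM at 24 h ND, and the NAC22 call was lost in 6 of 16 other settings and that of EREB102 without replicate 1 of 24 h ND.

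Names or descriptions exist for a further 313 tested genes in the study's tables of genes differentially expressed in sorghum leaf and root. Of these, 18 rose and 18 fell (11.5% called, against 4.73% of all genes, median 0.19). The study chose those genes on libraries of this series, so this share is not independent evidence. Allantoinase (SORBI_3006G270100), which opens the ring of allantoin in the recovery of nitrogen from purines, fell from 179, 173 and 159.5 TPM to 46.9, 36.8 and 39.6 TPM, a log2 fold change of -2.03 ± 0.14 (adjusted p = 7.8e-08). At 24.5 h NR it was still at 171 ± 16.3 TPM.

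A 4-coumarate:CoA ligase (SORBI_3004G272700), described under flavonoid biosynthesis, went from 52.6, 38.2 and 40.6 TPM to 7.57, 9.23 and 10.1 TPM (log2 fold change -2.16 ± 0.26, adjusted p = 6.5e-05). A cinnamoyl-CoA reductase-like gene (SORBI_3003G233200), described under defence response, went from 24.6, 16.6 and 16.3 TPM to 6.47, 6.38 and 6.03 TPM (-1.44 ± 0.21, adjusted p = 3.0e-04). BRITTLE CULM1 (SORBI_3001G336700), in rice a protein needed for cellulose-rich secondary walls, went from 75.7, 54.9 and 55.1 TPM to 12.0, 12.3 and 11.1 TPM (-2.28 ± 0.48, adjusted p = 0.0056). These 3 genes were picked after their values were seen. Of the 5 peroxidases described there, 0 fell and 1 passed as higher, peroxidase 25 (SORBI_3003G050300), with a log2 fold change of 1.15 ± 0.35 (adjusted p = 0.043, a call lost in 8 of 17 other settings), and their median was 0.40.

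Other falls among the described genes included THI1-1 (SORBI_3003G191000), a thiazole synthase of vitamin B1 synthesis, from 132, 67.0 and 56.6 TPM to 11.5, 11.9 and 9.10 TPM (log2 fold change -2.77 ± 0.39, adjusted p = 2.9e-04). The gene named CAT5 (SORBI_3003G022600) went from 6.35, 7.18 and 8.66 TPM to 1.27, 0.784 and 1.36 TPM (-1.98 ± 0.17, adjusted p = 2.5e-06). A RING/FYVE/PHD-type zinc finger gene (SORBI_3003G444900) fell furthest of the described genes outside the network, from 27.8, 22.6 and 23.1 TPM to 2.49, 2.46 and 2.66 TPM (-2.85 ± 0.35, adjusted p = 8.7e-05).

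Transport proteins were among the described genes that rose. The aquaporin TIP2-1 (SORBI_3010G146100), a water channel of the vacuole membrane that in Arabidopsis also passes ammonia, went from 57.3, 122 and 76.4 TPM to 653, 675 and 834 TPM (log2 fold change 3.13 ± 0.35, adjusted p = 3.4e-05). A probable sulfate transporter 3.5 (SORBI_3003G278600) went from 0.837, 5.30 and 0.561 TPM to 35.6, 15.3 and 22.9 TPM (3.21 ± 0.43, adjusted p = 1.7e-04). The other 2 described sulfate or phosphate transporters did not pass. A heavy metal ATPase of the P1B type (SORBI_3010G250900) rose by 1.23 ± 0.22 on the log2 scale.

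A set of 4 mitochondrial genes of leucine and branched-chain amino acid breakdown rose, and were grouped after their values were seen. Isovaleryl-CoA dehydrogenase (SORBI_3009G027000) was at 57.1, 140.2 and 61.5 TPM and then at 164, 339 and 153 TPM (log2 fold change 1.36 ± 0.40, adjusted p = 0.036). The methylcrotonoyl-CoA carboxylase gene SORBI_3008G160700, the hydroxymethylglutaryl-CoA lyase gene SORBI_3003G126500 and the electron transfer flavoprotein oxidoreductase gene SORBI_3001G194900 had log2 fold changes of 1.45, 1.38 and 2.05. In each of the 4 genes replicate 2 was the highest pool of both groups, as it was for the leaf markers, and each call was lost without replicate 2 of 48 h NR. The part of that library in these calls was not tested beyond leaving it out.

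The largest changes outside the named genes had no description in the sources used here. The gene with the largest rise at a pseudocount of 1, SORBI_3004G102200, was at 5.04, 5.34 and 1.73 TPM and then at 253, 101 and 133 TPM, a log2 fold change of 5.00 ± 0.41 (adjusted p = 1.1e-06). It had been at 120.2 ± 0.609 TPM at 0 h NN. SORBI_3006G018100 was the most abundant of the 10 largest rises, at 155, 221 and 140.0 TPM and then at 1927, 2167 and 2890.3 TPM (3.76 ± 0.28, adjusted p = 3.8e-07).

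SORBI_3003G188200 followed the course of NRT2.5: it was at 43.4, 26.9 and 30.0 TPM at 24 h ND, at 0.114, 0 and 0.155 TPM at 48 h NR and at 1.19 ± 0.897 TPM at 0 h NN (log2 fold change of 48 h NR against 24 h ND -4.96 ± 0.26, adjusted p = 2.5e-09). SORBI_3005G215700, 1 of 4 genes with neighbouring numbers among the 10 largest falls, was at 57.3, 630.4 and 92.7 TPM and then at 0.587, 1.23 and 0.887 TPM (-6.33 ± 1.05, adjusted p = 9.9e-04). Replicate 2 was by far the highest pool of 24 h ND for it, and its SE was well above that of the NRT2.1 genes. Adjacent genes changed in the same direction in 64 runs of 2 or more genes, which held 149 of the 1097 DEGs, and the longest run had 6 genes. No number of runs for randomly placed genes was computed, so this count is a description.

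The other primary root groups, which entered the calls only through the estimate of spread, were placed on a scale. It is 0 at the 24 h ND mean and 1 at the 48 h NR mean of each DEG. For the 455 higher genes the median position was 0.58 at 0 h NN, 0.61 at 0.5 h ND, 0.44 at 3 h ND, 0.30 at 24.5 h NR and 0.80 at 48 h NRC. For the 642 lower genes it was 0.65, 0.88, 0.47, 0.27 and 0.81 in the same order. The DEGs therefore stood nearer to their deprived level 0.5 h after nitrate returned, and nearer to their recovered level in the roots labelled NRC. At 48 h NRC, 357 of the 455 higher genes (78.5%) and 531 of the 642 lower genes (82.7%) were nearer to 48 h NR than to 24 h ND, against 63.3% of all genes tested. At 24.5 h NR it was 139 (30.5%) and 169 (26.3%), against 43.9% of all genes. The ends of the scale were set by the libraries that chose the genes, so these positions are a description.

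**Figure D4:**
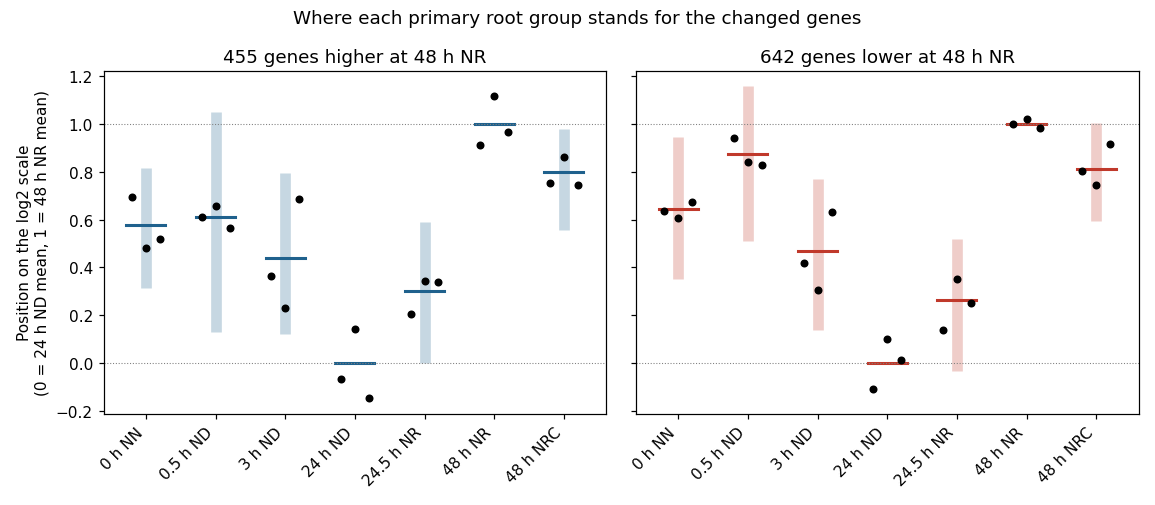
The plot of positions shows, for the 455 higher (left) and 642 lower (right) DEGs, where each primary root group lies between the 24 h ND mean (0) and the 48 h NR mean (1) on the log2 scale. Lines are medians over genes, bars the quartiles over genes and points the medians of single libraries: NRC is at 0.80 and 0.81 and 24.5 h NR at 0.30 and 0.27.

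Few genes differed between recovered roots and the NRC roots of the same time. Of 23186 genes, 113 differed between 48 h NR and 48 h NRC (0.487%), 66 higher and 47 lower in 48 h NR, whereas 844 differed between 24 h ND and NRC (3.64%). WRKY104 was at 1.23, 1.19 and 0.674 TPM in NRC, below each 48 h NR library (log2 fold change of NR against NRC 2.16 ± 0.35, adjusted p = 0.0061). A divalent ion symporter (SORBI_3001G307700), which fell from 20.6, 16.5 and 14.3 TPM to 2.37, 1.79 and 3.39 TPM, was at 9.05, 12.8 and 9.46 TPM in NRC (-1.71 ± 0.29, adjusted p = 0.0084). The calcium-binding protein CP1 (SORBI_3001G393500) was lower in NR than in NRC (log2 fold change -1.11 ± 0.21, adjusted p = 0.017), as was ACS7, a gene of ethylene synthesis (-1.54 ± 0.31, 0.029). The NRT2 and NAR2.1 genes were not called between NR and NRC, with log2 fold changes of -0.47, -0.02, 0.15 and -0.06.

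In its fold changes, the comparison of NRC with 0 h NN uses none of the 6 libraries, which enter only its estimate of spread. It called 341 genes (1.47%), of which 60 were DEGs in the same direction as in 48 h NR against 24 h ND (5.47% of those DEGs and 17.6% of the 341) and 32 in the opposite direction. Both NRT2.1 genes and NAR2.1 were lower in NRC than at 0 h NN, with log2 fold changes of -2.84, -2.14 and -1.15, and TIP2-1 was higher (1.93). Against 0 h NN, 48 h NR had 789 DEGs (3.40%), and NAR2.1, AMT1.3 and GS1-1 were among those that were lower. Primary roots at 48 h NR and at NRC had both grown on for 48 h after the 0 h sampling or longer, and that age and nitrate history cannot be told apart.

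Lateral roots changed mostly in the same directions. Whether the replicate 2 columns of 48 h NR were exchanged between both root tissues is not known, and an exchange would enter the values of both. Between 24 h ND and 48 h NR, 821 of 22588 genes tested in both tissues were DEGs in lateral root (3.63%), 553 higher and 268 lower. Of 1092 primary root DEGs tested there, 1062 had the same sign (97.3%, against 67.8% of all genes), 442 were DEGs in the same direction (40.5% of the primary root DEGs and 53.8% of the lateral root DEGs) and 0 in the opposite direction. The fold changes of all genes had a Pearson r of 0.69 between both tissues, across genes, which are not independent replicates. The median log2 fold change of the higher genes was 1.47 in primary and 1.60 in lateral root, and that of the lower genes was -1.33 and -1.08.

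The test of the difference itself, limma's interaction of tissue and time, called 0 of 22588 genes (smallest adjusted p 0.999), with 737 at an unadjusted p under 0.05. This does not show that the tissues changed alike, because the intervals are wide: the change of NRT2.1 SORBI_3004G009400 differed by -0.34 (primary minus lateral, 95% interval -1.77 to 1.09), that of NR2 by 0.31 (-1.31 to 1.93) and that of GDH1 by 0.05 (-1.05 to 1.15). A lateral root library of 0 h NN (replicate 1) correlated with its group at only 0.588 and widened the spread. With only the 4 groups compared in the fit, 3479 genes had an unadjusted p under 0.05 and the smallest adjusted p was 0.055. In that fit the difference was -1.88 (-2.61 to -1.14, adjusted p = 0.066) for the ammonium transporter AMT1.1a and -1.67 (-2.47 to -0.86, 0.095) for AMT1.3. The values for SORBI_3004G009500 and NAR2.1 were -1.46 (-2.15 to -0.78, 0.094) and -1.37 (-2.17 to -0.57, 0.13). Differences of such size were not confined to uptake genes, with -2.94 (-4.00 to -1.89, 0.066) for OSM3 and -1.31 (-1.86 to -0.77, 0.071) for bZIP24. HAD5 went the other way, at 0.88 (0.42 to 1.35, 0.11). None of these passed the test.

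Leaves changed differently. Of 18500 genes tested in both tissues, 1805 differed in their change between primary root and leaf (9.76%), 1002 with a higher and 803 with a lower value in primary root. In leaf alone 1602 genes were DEGs (8.66%), of which 128 were DEGs in the same direction in primary root and 53 in the opposite direction. Of 739 primary root DEGs tested in leaf, 58.3% had the same sign there, against 49.4% of all genes.

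Uptake genes that fell in primary root were low in leaf. NRT2.1 SORBI_3004G009400 had a mean of 0.544 TPM in leaf at 24 h ND and NAR2.1 of 0.403 TPM, so that with a pseudocount of 1 no fall of the size seen in root could be measured there, and NRT2.5 went from 5.42 to 2.33 TPM. The change of NRT2.1 SORBI_3004G009400 was -6.61 in primary root and -0.53 in leaf (difference -6.08, 95% interval -7.16 to -5.00), that of NRT2.5 -5.05 and -0.91 (difference -4.14, -5.63 to -2.65) and that of NAR2.1 -3.14 and -0.22 (difference -2.92, -4.03 to -1.81). For AMT1.3 the difference of -1.39 did not pass the test (adjusted p = 0.077), nor did those of AMT1.1a (-0.99), AMT2.3 (-0.90), AMT2.4 (-0.89) and NRT1.1 (-0.11), and NPF3.6 had a difference of 1.63 (adjusted p = 0.012), from a fall of 1.20 in leaf. In leaf NPF3.6 went from a mean of 2.43 to 0.456 TPM. NR2 moved in opposite directions, with log2 fold changes of -1.36 in primary root and 1.06 in leaf. The difference was -2.42 ± 0.53 (SE, adjusted p = 0.0025 by the interaction test). The leaf means of NR2 were low, at 2.82 TPM at 24 h ND and 6.82 TPM at 48 h NR. GDH1 and GDH2 rose in root by 1.31 and 1.85 against -0.41 and 0.05 in leaf, where GDH2 had a mean of 3.08 TPM at 24 h ND. The 3 WRKY genes that rose in root had negative changes in leaf, of -1.63 for WRKY104 (difference 4.07 ± 0.59), -2.92 for SORBI_3002G202700 (5.68 ± 0.83) and -1.13 for WRKY15 (2.82 ± 0.40). ASN3 had the reverse pattern, at 0.16 in root and 3.77 in leaf (difference -3.60 ± 0.74). For G6PD1 the changes of 1.39 and 0.98 did not differ by the test (difference 0.41, -0.28 to 1.10).

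**Figure D5:**
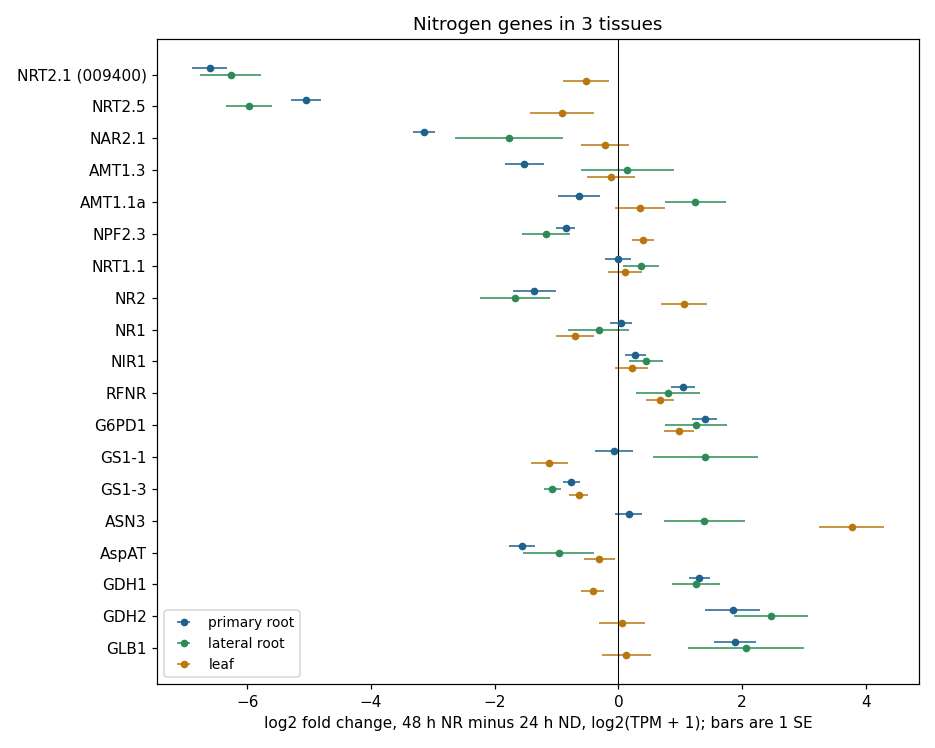
The plot of tissues shows the log2 fold change from 24 h ND to 48 h NR on log2(TPM + 1) for 19 nitrogen genes in primary root (blue), lateral root (green) and leaf (orange), with bars of 1 SE, the root values from the fit of primary root alone and the others from the fits of both tissues. NRT2.1, NRT2.5 and NAR2.1 lie far left in both root tissues. In leaf NRT2.1 lies at -0.53 and NAR2.1 at -0.22, both with under 1 TPM, and NRT2.5 at -0.91. NR2 lies at -1.36 in primary root and at 1.06 in leaf.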

How the data were processed

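The authors used Trimmomatic on paired-end poly(A) reads, STAR for alignment against the BTx623 genome and StringTie for quantification. The deposited values are TPM, 1 column per library, each summing to 1000000, and all columns were used. TPM keep no read depth, so no counting interval is given and precision rests on the spread between libraries within the groups of each fit. Of 35567 gene IDs 0 matched the reference table of names, so names come from the study's network (319 genes) and its gene descriptions (340 further genes).

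Genes at 1 TPM or more in at least 3 of the 21 primary root libraries entered a limma 3.58.1 fit (R 4.3.3, eBayes, trended prior) of log2(TPM + 1) over the 7 groups, with Benjamini-Hochberg adjustment over all genes tested. Fold changes are on this scale, which understates changes of low genes. Tissues were compared by interaction contrasts over the 14 groups of each pair of tissues. Named genes were members of the network's process lists, its TFs past the test, described genes past the test, and the 10 largest rises and falls with no overlap. Members and lists were chosen with earlier results of these data known. Alternatives were pseudocount, filter, scaling, trend, groups in the fit, replicate block and each library left out; the fits without replicate 2 of both groups and without lateral root 0 h NN replicate 1 were chosen after seeing the data. The test was tested on simulated data. For 295 of 295 genes in the study's table of clustered root genes, the 48 h level equals, within 1%, a mean in which lateral root replicate 2 takes the place of primary root replicate 2 (19 genes with the labelled columns); the columns were used as labelled. Sources differ on pool size, nutrient solution and sequencer. Figures were drawn with matplotlib 3.10.9 in Python 3.11.15.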

Additional observations from a re-analysis of the deposited data

Results flagged for a closer look

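The change from 24 h ND to 48 h NR differed between primary root and leaf in 1805 of 18500 genes by the interaction test (9.76%). Among them were 14 genes of the study's process lists. The list genes tested in both tissues were not counted, so no share is set beside the 14. Differences are given as the primary root log2 fold change minus the leaf one. Among transporters they were -6.08 for NRT2.1 (SORBI_3004G009400), -4.14 for NRT2.5, -2.92 for NAR2.1, -1.25 for NPF2.3 and 1.63 for NPF3.6, and NR2 was at -2.42. In leaf at 24 h ND the means were 0.544 TPM for that NRT2.1 gene and 0.403 TPM for NAR2.1. No fall of the size seen in root could be measured there. Leaf means at 24 h ND were also low for NPF3.6 (2.43 TPM), GLB1 (2.79), NR2 (2.82) and GDH2 (3.08). Differences for the amino acid genes follow. Among amino acid genes they were 1.72 for GDH1, 1.80 for GDH2, -3.60 for ASN3 and -1.25 for AspAT. The others were GLB1 at 1.75, the cytokinin gene LOG2 at 1.60, AUF4 at -1.17 and RING at -1.63. For NPF2.3, ASN3, LOG2, NPF3.6, AUF4 and RING the primary root change alone was not a DEG.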

How the results depend on the processing

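With the adjusted p alone 2542 genes passed, 1251 higher and 1291 lower. Leaving out each of the 6 primary root libraries in turn gave 750 to 1312 DEGs, 269 to 646 higher and 463 to 666 lower, 1305 to 1969 genes with a different change from leaf and 0 with a different change from lateral root. Other settings gave 884 to 1255 DEGs: a pseudocount of 0.1 gave 1255, no filter 976, a mean of at least 5 TPM 884, median-of-ratios scaling 1116, quantile normalization 1101, and no replicate 2 in both groups 886, of which 745 were shared. Of 81 named calls 0 reversed in any of these settings, 55 held with each of the 6 left out, 20 were lost without replicate 2 of 48 h NR, and 19 without replicate 3 of 24 h ND.

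Replicate numbers were compared as pairs: deviations of same-numbered libraries correlated at -0.04, 0.37 and 0.29. Replicate 1 of 48 h NR correlated best with replicate 3 of 24 h ND. With deviations from means of 3 libraries, these values cannot show whether same-numbered libraries share more than a number. With a replicate block 1047 genes were DEGs (428 higher, 619 lower), 1768 differed from leaf and 0 from lateral root, and the call lost among named genes was isovaleryl-CoA dehydrogenase (adjusted p = 0.051).

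Depth is unknown, so the counting error of levels under 1 TPM, such as NRT2.5 at 48 h NR, cannot be given. With 3 pools a group, a change that missed the threshold is not shown to be absent.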
